A study of Homo sapiens with 18 samples.

Results

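The addition of full-length NRF1 to cells that kept their own NRF1 was examined in 6 of the 18 RNA-Seq libraries of the study: the 3 libraries of siNT+NRF1-FL and the 3 of siNT, chosen by their labels alone. All 18 libraries come from HEK293 Flp-In, a human embryonic kidney line with a docking site for transgenes, and all carry the treatment label siRNA plus doxycycline. In the siNT group, cells for which the labels name no transgene, called cells without a transgene below, received a non-targeting siRNA. The sources do not say whether these are parental cells or a line with a control vector, nor whether a stable line was a pool or 1 clone. In the siNT+NRF1-FL group, a stable line with a doxycycline-inducible, FLAG-tagged NRF1 that contains exon 7 (NRF1-FL) received the same siRNA. The other groups, used below only for side-by-side values, are a stable line with NRF1 lacking exon 7 under siNT (siNT+NRF1-DE7) and the same cells and lines under an siRNA against NRF1 (siNRF1, siNRF1+NRF1-FL and siNRF1+NRF1-DE7). According to the study, silent changes at the siRNA site make both transgenes resistant to siNRF1. Per the study's methods, doxycycline was at 0.1 ng/mL and cells were collected 48 h after induction. The labels put doxycycline 24 h after transfection and the methods 6 h. Each transgene was studied in 1 stable line, so the effect of the NRF1-FL transgene and any other difference between that line and cells without a transgene cannot be told apart. Nothing says whether the replicates were grown apart. The p-values therefore speak of the spread between libraries, part of which may be technical.

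Nuclear respiratory factor 1, or NRF1, recognises a GC-rich palindrome close to where many genes start. It is best known as a transcription factor for nuclear genes of the respiratory chain and of the mitochondrial transcription and import machinery, and it also acts on genes of the cell cycle and of cilia. Its binding site was searched as GCGCATGCGC and in the looser form GCGCNNGCGC, where N is any base. Both forms read alike on either strand, so 1 pass covers both strands, and every match to the GCGCATGCGC form is also a match to the looser form. The window took in 250 bases upstream of a gene's main transcript and its first 50 bases (hg38, GENCODE 44).

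The windows below show the motif in capitals with its neighbouring bases, 5′ to 3′ along the gene's strand. The first 4 genes were called higher in the NRF1-FL line and are shown because they hold a match. The other 3, ANKRD26, YEATS4 and PUDP, are NRF1 target genes named in the study. The looser form was in 12 of 138 windows of genes called higher (8.70%), beside 14.3% of all windows. NCAN lies on the plus strand (hg38, chr19:19211887-19211916), with the motif starting 61 bases before the transcript start, and ANKRD26 on the minus strand (chr10:27100489-27100518), with the motif 14 bases before it.
NCAN: gctggcggggGCGCATGCGCagagagccct
CNTNAP1: gctgaggcacGCGCTTGCGCggggtccggg
PRR35: cggagcccagGCGCACGCGCgcccgcctct
ABHD14A: gctgcggagtGCGCAGGCGCgccgagatgg
ANKRD26: catctgaggtGCGCATGCGCacttgtgtct
YEATS4: cgagcccgttGCGCCTGCGCgcggtgcggc
PUDP: ggtcctcagtGCGCGTGCGCggggcgggcg
The window of CNTNAP1 is chr17:42682502-42682531 and that of PRR35 chr16:560358-560387, both on the plus strand. That of ABHD14A is chr3:51975052-51975081 and that of YEATS4 chr12:69359705-69359734, both on the plus strand. The window of PUDP is chrX:7148165-7148194 on the minus strand. PUDP has 3 matches to the looser motif, and ANKRD26 and YEATS4 have 2 each, of which the match nearest the start is printed.

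NRF1 RNA was higher in the NRF1-FL line, while 3 NRF1 target genes named in the study differed by at most 0.23 on the log2 scale. NRF1 stood at 52.4, 55.7 and 55.2 CPM (counts per library size, scaled by TMM) in the siNT+NRF1-FL libraries and at 31.1, 29.9 and 29.3 CPM in the siNT libraries. The groups did not overlap, with means of 54.4 ± 1.78 and 30.1 ± 0.928 CPM (SD, n = 3 each). The log2 fold-change was 0.85 (standard error 0.047, 95% interval 0.76 to 0.95, adjusted p = 1.4e-10 by edgeR's quasi-likelihood test), a 1.81-fold difference. Reads of the gene and of the transgene share this 1 count, so the 2 sources cannot be told apart. In the NRF1-DE7 line under siNT, NRF1 had 58.7, 59.0 and 57.9 CPM, and the 2 lines did not differ by more than the test allows (log2 difference -0.10, adjusted p = 0.123 by edgeR's quasi-likelihood test).

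ANKRD26, a gene of centrioles, was at 41.6, 40.1 and 39.5 CPM with NRF1-FL and at 36.5, 40.1 and 38.4 CPM in siNT cells, and the groups overlapped. Its log2 fold-change was 0.08 with a 95% interval of -0.02 to 0.18 (adjusted p = 0.37 by edgeR's quasi-likelihood test). YEATS4, a histone reader of chromatin-remodelling complexes, was at 63.9, 67.5 and 61.7 CPM against 63.7, 63.8 and 64.3 CPM. The log2 fold-change of YEATS4 was 0.01 (95% interval -0.08 to 0.09), and its sign turned to -0.00406 with upper-quartile scaling. PUDP, a nucleotide phosphatase, was at 31.1, 30.1 and 28.1 CPM against 26.01, 24.2 and 25.8 CPM, all 3 NRF1-FL libraries above all siNT libraries. It rose by a log2 fold-change of 0.23 (adjusted p = 0.0124 by edgeR's quasi-likelihood test), under the fold threshold for a call. Under siNRF1, where the NRF1 RNA of cells without a transgene was at 7.19, 9.25 and 7.70 CPM, the same line stood above those cells by log2 fold-changes of 1.37 for ANKRD26, 1.37 for YEATS4 and 1.61 for PUDP. The line difference of each of these 3 genes differed between the 2 siRNAs (interactions of -1.29, -1.36 and -1.38 on the log2 scale, the largest adjusted p being 1.4e-10 by edgeR's quasi-likelihood test).

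**Figure D1:**
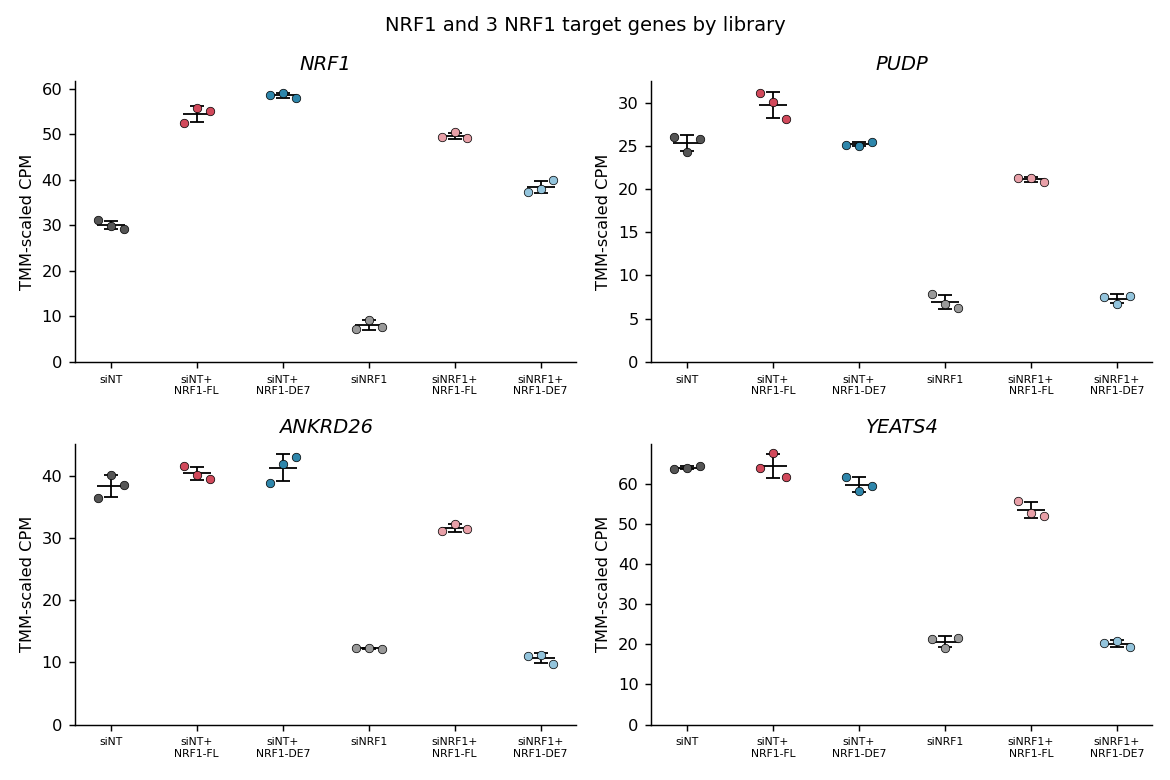
TMM-scaled CPM (y axis, from 0) of NRF1, PUDP, ANKRD26 and YEATS4 in the 6 groups (x axis); points are libraries, bars the mean and SD of 3. NRF1 stood at 52.4 to 55.7 CPM in siNT+NRF1-FL and at 29.3 to 31.1 CPM in siNT, while the 3 target genes lay close together under siNT and apart under siNRF1.

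Among 17962 genes tested, 140 were called higher (0.779%) and 82 lower (0.457%) in siNT+NRF1-FL than in siNT. Together these are 222 genes (1.24%). Calling a gene took an adjusted p under 0.05 (edgeR's quasi-likelihood test) together with a log2 fold-change beyond 0.5 in either direction. Before adjustment, 2169 genes were higher (12.1%) and 1580 lower (8.8%) at a p under 0.05. The 3 libraries of each group did not overlap for 2613 higher (14.5%) and 2048 lower genes (11.4%), among them all 140 higher and 79 of the 82 lower calls. The median log2 fold-change of the calls was 0.90 and -0.91. The calls just inside the fold threshold were SLC4A3 at 0.50 and FAM157A at -0.50, and the passing genes just outside it were STARD7-AS1 at 0.50 and CD44 at -0.49. With no fold threshold 959 genes were higher (5.34%) and 503 lower (2.8%), or 801 and 634 with upper-quartile scaling. Among the calls, 100 of the 140 and 58 of the 82 had a mean of at least 1 CPM in the higher group. Leaving out siNT replicate 2 or 3 or siNT+NRF1-FL replicate 1 or 2 lowered the number of lower calls to 54, 46, 46 and 51. Under 14 other settings, among them DESeq2 and the omission of each library, 51 of the higher and 17 of the lower genes kept their call in all of them. Not every call could be kept, since 67 of the 222 were not tested at 10 counts in every library, 18 were not tested with only the compared libraries, and DESeq2 gave no adjusted p for 38 (all libraries) and 24 (compared libraries only).

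**Figure D2:**
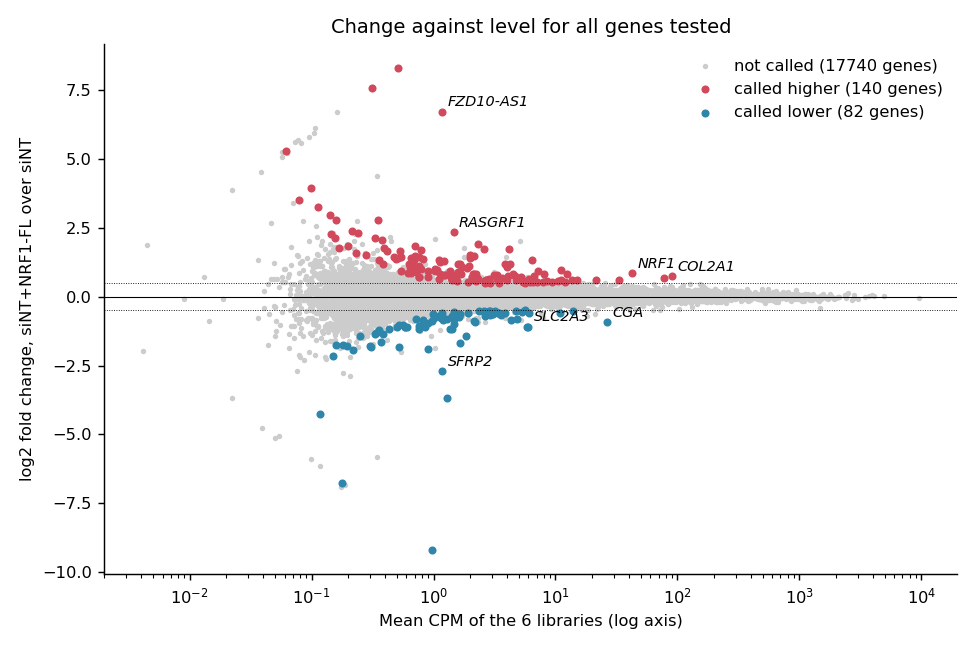
Log2 fold-change of siNT+NRF1-FL over siNT (y axis, thresholds dotted at 0.5 and -0.5) against the mean CPM of the 6 libraries (x axis, log scale) for 17962 genes. The 140 higher and 82 lower calls spread over the range of levels, and NRF1 at 0.85 and COL2A1 at 0.74 are among the labelled genes.

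The calls were also set against pairs of groups other than siNT+NRF1-FL and siNT, whose libraries entered the same fit only through the filter, the scaling and the shared estimate of spread. In siNRF1+NRF1-FL against siNRF1, 95 of the 140 higher genes were called higher (67.9%, where 3.69% of all genes were, and 14.4% of the genes called there). The sign was the same for 134 of them (95.7%, where 48.1% of all genes had it), with a median log2 fold-change of 0.97. In siNRF1+NRF1-DE7 against siNRF1, 32 of the 140 were called higher (22.9%, where 1.31% of all genes were, and 13.6% of the genes called there), 88 had the same sign (62.9%, where 49.9% of all genes had it), and the median was 0.25. Of the 82 lower genes, 29 were called lower in siNRF1+NRF1-FL (35.4%, where 1.11% of all genes were, and 14.5% of the genes called there) and 17 in siNRF1+NRF1-DE7 (20.7%, where 1.05% were, and 9.04% of the genes called there). The sign was the same for 71 of the 82 with NRF1-FL (86.6%, beside 51.8% of all genes) and for 47 with NRF1-DE7 (57.3%, beside 50.1%). In the opposite direction, 0 of the 140 and 0 of the 82 were called with NRF1-FL. With NRF1-DE7, 3 of the 140 were called lower (1.05% of all genes were) and 5 of the 82 higher (1.31% of all genes were). Both comparisons under siNRF1 share the siNRF1 libraries, so their counts are not independent of each other.

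Genes lowered by siNRF1 were then taken from another set of libraries, siNRF1+NRF1-DE7 against siNT+NRF1-DE7, where 3023 genes were called lower (16.8%) and 2875 higher (16%). The study's methods name a single siRNA sequence against NRF1. Direct effects of NRF1 loss, indirect ones and other effects of the siRNA cannot be told apart there. Of the 3023 genes lowered by siNRF1, 272 were higher (9.0%) and 100 lower (3.31%) in siNT+NRF1-FL than in siNT at an adjusted p under 0.05, beside 5.34% and 2.8% of all genes. Their median log2 fold-change was 0.02 with quartiles of -0.05 and 0.10, beside a median of 0.00478 over all genes. Called by fold as well, 38 of them were higher and 15 lower. These 38 are 27.1% of the 140 higher genes, beside the 16.8% of all genes, and 30 of the 140 (21.4%, beside 16%) were called higher with siNRF1 instead.

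Motif matches were then counted in the windows of the called genes. The motif GCGCATGCGC was in 350 of 17846 windows (1.96%), in 1 of the 138 of higher genes (0.725%), which is NCAN, and in none of the 78 of lower genes. The looser motif was in 14.3% of all windows, in 12 of 138 of higher genes (8.70%) and in 1 of 78 of lower genes (1.28%). Among genes lower with siNRF1 in the NRF1-DE7 line, 3.39% and 19.9% of 3005 windows had the 2 forms. The 350 genes with GCGCATGCGC had a median log2 fold-change of 0.01 in siNT+NRF1-FL against siNT, of 0.12 in siNRF1+NRF1-FL against siNRF1 and of -0.21 for siNRF1 in the NRF1-DE7 line. A match is a stretch of letters and was not tested as a binding site.

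Among genes called lower with siNRF1 in the NRF1-DE7 line, 6 had the largest rise in the NRF1-FL line. They were MXRA8, C2CD2, ADCYAP1R1, CA7 and a pair of low noncoding genes. MXRA8, an adhesion protein that alphaviruses use as a receptor, was at 3.19, 3.00 and 3.25 CPM with NRF1-FL and at 0.998, 1.177 and 1.23 CPM in siNT cells. All NRF1-FL libraries were above all siNT libraries, and also above the NRF1-DE7 libraries at 0.772, 0.930 and 0.822 CPM. Its log2 fold-change was 1.47 (standard error 0.18, adjusted p = 1.4e-05 by edgeR's quasi-likelihood test), and siNRF1 changed it by -1.51 in the NRF1-DE7 line. C2CD2, a C2-domain protein gene on chromosome 21, was at 6.76, 6.43 and 6.15 CPM against 1.92, 1.92 and 1.92 CPM, a log2 fold-change of 1.74 (adjusted p = 1.2e-09 by edgeR's quasi-likelihood test). The NRF1-DE7 line lay between, at 4.24, 4.27 and 4.56 CPM. ADCYAP1R1, the receptor for the neuropeptide PACAP, was at 3.45, 4.48 and 3.95 CPM against 1.40, 1.08 and 1.09 CPM. CA7, a cytosolic carbonic anhydrase, was at 0.863, 0.831 and 0.732 CPM against 0.424, 0.134 and 0.287 CPM. The noncoding genes are AC079385.2 (log2 fold-change 2.15) and C8orf31 (2.38), both under 0.5 CPM in every siNT+NRF1-FL library.

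Further genes were picked for naming after their values were seen. MEST, an imprinted hydrolase gene, was at 2.88, 3.06 and 2.68 CPM with NRF1-FL, at 1.67, 1.75 and 1.43 CPM in siNT and at 1.42, 1.86 and 1.49 CPM in the NRF1-DE7 line. Under siNRF1 it dropped to 0.404, 0.504 and 0.600 CPM without a transgene and stayed at 2.04, 2.53 and 2.51 CPM in the NRF1-FL line, whose libraries lay above both other groups under each siRNA. TMEM179 went from 1.37, 1.21 and 1.06 CPM in siNT to 2.90, 2.60 and 2.49 CPM with NRF1-FL, and reached 5.65, 6.38 and 5.997 CPM in siNRF1+NRF1-FL. OXGR1, a receptor for 2-oxoglutarate on chromosome 13, had a log2 fold-change of 0.83, CYP24A1, which inactivates vitamin D, of 0.89, and SCUBE3, a secreted glycoprotein, of 1.19. CNTNAP1, an adhesion protein of myelinated axons with the motif shown above, was at 25.6, 25.1 and 27.3 CPM against 16.9, 16.6 and 18.2 CPM (log2 fold-change 0.59). PRR35 (0.79) and ABHD14A (0.62), also shown above, were both lower with siNRF1 in the NRF1-DE7 line, by -2.32 and -2.90. ABHD14A overlaps neighbouring and readthrough transcripts, so its count is uncertain. NCAN, which encodes the brain proteoglycan neurocan, was at 1.12, 1.15 and 0.854 CPM against 0.349, 0.336 and 0.430 CPM (log2 fold-change 1.47), although siNRF1 did not pass the test for it in the NRF1-DE7 line (-0.11, adjusted p = 0.784 by edgeR's quasi-likelihood test).

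Of the 82 lower genes, 20 were called higher (24.4%, beside 16% of all genes) and 15 lower (18.3%, beside 16.8%) with siNRF1 in the NRF1-DE7 line. The 6 of the 20 with the largest decrease are low. SLC8A2, a sodium-calcium exchanger, was at 0.172, 0.214 and 0.195 CPM with NRF1-FL and at 0.549, 0.336 and 0.574 CPM in siNT (log2 fold-change -1.33). LRRN3 was at -1.04 and WIF1, a secreted Wnt inhibitor, at -0.86. The noncoding genes RNFT1-DT (-4.25), AC011498.2 (-1.01) and AC104825.1 (-0.97) complete the 6, each with low counts.

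The nuclear genes of respiration, the best known class of NRF1 targets, differed little. Over 272 genes of 9 lists, 13 were higher (4.78%) and 5 lower (1.84%) at an adjusted p under 0.05, beside 5.34% and 2.8% of all genes. Their log2 fold-changes ran from -0.25 to 0.35, with a median of -0.01 and quartiles of -0.05 and 0.03. With siNRF1 in the NRF1-DE7 line, 152 of the same genes were lower (33.6% of all genes were) and 64 higher (34.5% of all genes were) at an adjusted p under 0.05, with a median of -0.14. TFAM, which packages and transcribes mitochondrial DNA, was at 219, 217 and 211 CPM against 204, 213 and 211 CPM (log2 fold-change 0.04, 95% interval -0.01 to 0.10). POLA2, a subunit of DNA polymerase alpha, was at 67.9, 76.2 and 76.4 CPM against 73.0, 69.0 and 69.9 CPM (0.06, 95% interval -0.04 to 0.16).

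Of these 272 genes, 10 lie on chromosomes 13 and 21, and 8 of those 10 were higher. Over all 547 genes tested on these chromosomes, 204 were higher at the same adjusted p. Among the other 262, 5 were higher and 5 lower (1.91% each). MRPS6, of the small mitochondrial ribosomal subunit and on chromosome 21, was at 59.7, 58.0 and 57.9 CPM against 45.1, 42.9 and 49.2 CPM (log2 fold-change 0.35). GABPA, also called NRF2 and a partner regulator of respiratory genes, is on chromosome 21 as well and rose by 0.21. NDUFV3, of complex I, and MRPL39 on that chromosome both rose by 0.22, the ATP synthase subunits ATP5PO and ATP5PF by 0.17 each, and on chromosome 13 MRPS31 and the succinyl-CoA ligase gene SUCLA2 by 0.16 each. On other chromosomes, the complex I genes NDUFS6, within the chromosome 5 window described below, and NDUFB4 on chromosome 3 had log2 fold-changes of 0.25 and -0.25, the ATP synthase gene ATP5MC2 one of -0.20, and UQCRH, of complex III, one of -0.10. In mitochondrial import TOMM34 rose by 0.11, among factors of mitochondrial DNA LIG3 by 0.15 and in the TCA cycle DLD by 0.10.

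The 15 genes of mitochondrial DNA had a median log2 fold-change of -0.12, and none passed an adjusted p of 0.05 by edgeR's quasi-likelihood test or by DESeq2 on all libraries. At an unadjusted p under 0.05, 4 were lower, beside 8.8% of all genes. Without a filter on low counts 10 were lower at an adjusted p under 0.05, beside 612 of all 33553 genes. With edgeR on only the compared libraries 4 were lower (557 of all 16700 genes were), and with DESeq2 on those 1 (379 of 16700 were). The share of all counts on genes of mitochondrial DNA was 0.944%, 0.818% and 0.901% in siNT+NRF1-FL and 0.966%, 0.9752% and 0.971% in siNT. All 3 NRF1-FL libraries were lower, by a mean of 0.0827 percentage points, and the two-sided exact permutation test gave p = 0.1, the smallest that 3 against 3 can give. The NRF1-DE7 libraries stood at 0.767%, 0.804% and 0.816%.

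The largest differences were of genes close to silent in siNT cells. FZD10, a Wnt receptor on chromosome 12, had no count in the 3 siNT libraries and 1.03, 1.15 and 0.903 CPM with NRF1-FL, at least 36.0-fold higher when 3 counts over the siNT group are taken as the floor. Its neighbour FZD10-AS1 was at 2.50, 2.12 and 2.42 CPM against 0.0499, 0 and 0 CPM, and lies next to FZD10 on the opposite strand. The strand setting of the counting is not given, so reads near their shared border may be split either way. Both were at or below 0.145 CPM in the NRF1-DE7 line under siNT and were present again in siNRF1+NRF1-FL. RASGRF1, an exchange factor for Ras, was at 2.56, 2.52 and 2.27 CPM against 0.499, 0.471 and 0.459 CPM. No other group reached these values except siNRF1+NRF1-FL, with 7.61, 6.75 and 7.18 CPM. The log2 fold-change of RASGRF1 was 2.35 against siNT (standard error 0.17, adjusted p = 3.9e-09 by edgeR's quasi-likelihood test) and 2.95 against the NRF1-DE7 line.

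RASGRP2, an exchange factor for Rap, had a log2 fold-change of 1.68, the sulfotransferase gene SULT1C4 one of 1.51, KIAA1257 one of 1.85 and the tyrosine kinase gene TNK1 one of 1.43. SULT1C4 was higher still in the NRF1-DE7 line, at 5.08, 3.72 and 4.16 CPM against 3.42, 2.73 and 2.76 CPM with NRF1-FL and 1.15, 0.908 and 1.03 CPM in siNT. The histone H3 genes HIST2H3C (3.85, 3.59 and 3.71 CPM against 1.47, 0 and 1.32 CPM) and HIST2H3A (0 CPM in all 3 libraries against 1.47, 3.06 and 1.32 CPM) moved in opposite directions. They are near-identical copies whose estimated counts can be split either way, and both values are uncertain.

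Among lower genes, SLC2A3, the glucose transporter GLUT3, was at 3.91, 3.73 and 3.91 CPM with NRF1-FL and at 8.26, 8.14 and 8.06 CPM in siNT. It also stayed near the siNT level in the NRF1-DE7 line (8.88, 8.66 and 8.67 CPM) and was again low in siNRF1+NRF1-FL (5.03, 4.65 and 4.32 CPM). Its log2 fold-change was -1.08 (standard error 0.082, adjusted p = 1.2e-08 by edgeR's quasi-likelihood test). ALDH1L2, a mitochondrial enzyme of folate metabolism, was at 3.996, 3.49 and 3.71 CPM against 7.83, 8.14 and 8.04 CPM in siNT, and stood on the other side in the NRF1-DE7 line, at 15.2, 13.9 and 15.8 CPM. SFRP2, a secreted Wnt antagonist, was at 0.316, 0.241 and 0.366 CPM against 1.62, 1.92 and 2.58 CPM in siNT. In contrast to both, it was low in the NRF1-DE7 line too, at 0.356, 0.262 and 0.723 CPM.

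**Figure D3:**
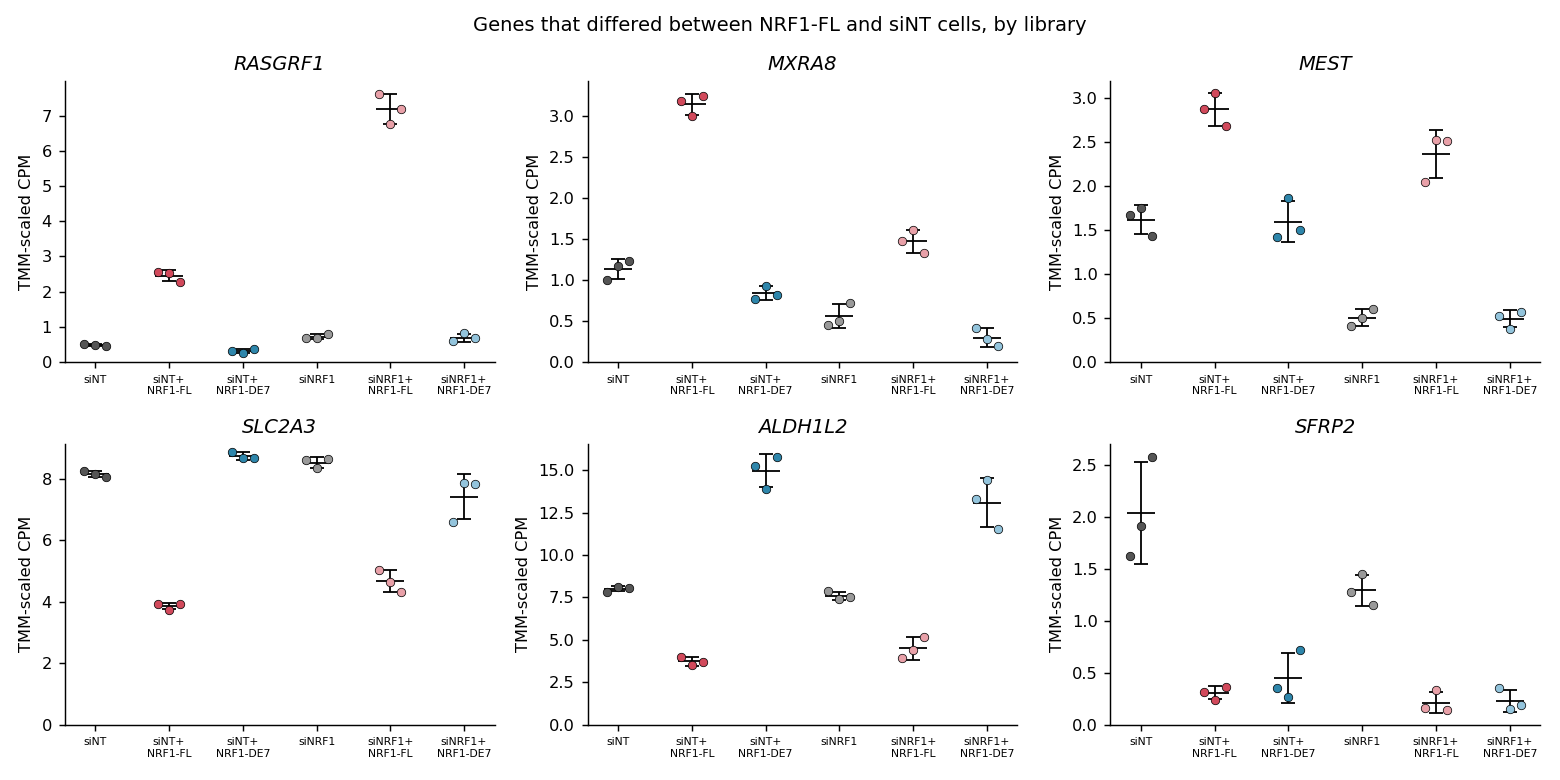
TMM-scaled CPM (y axis, from 0) of RASGRF1, MXRA8, MEST, SLC2A3, ALDH1L2 and SFRP2 in the 6 groups (x axis); points are libraries, bars the mean and SD of 3. RASGRF1 was high only in the 2 groups with NRF1-FL among these 6 groups, while SFRP2 was at 0.723 CPM or less in both lines under siNT and at 1.62 CPM or more in siNT cells.

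STC1, a secreted glycoprotein, had a log2 fold-change of -1.16, the transporter gene ABCA8 one of -1.16, the zinc finger gene ZNF257 one of -1.67 and CSKMT, a methyltransferase for citrate synthase, one of -1.08. The remaining large decreases were of unnamed or repeated features: AC008554.1 at -1.91, AC009133.6 at -1.44, the pseudogene AC140134.1 at -1.17 and FP236241.1 at -3.67. FP236241.1 ranged from 0.107 to 4.30 CPM within and across the 18 libraries.

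To separate the NRF1-FL line from what the other stable line shares, the called genes were set against siNT+NRF1-DE7. This comparison uses the same siNT+NRF1-FL libraries, so its counts are no independent evidence. Of the 140 higher genes, 54 were also called higher than in the NRF1-DE7 line (1.16% of all genes were), and of the 82 lower genes, 26 were also called lower (1.05% of all genes were). Besides FZD10, FZD10-AS1 and RASGRF1, the largest of the higher ones were KIF19, a kinesin, the growth factor gene GDF10 and SLC5A8, a monocarboxylate transporter, at log2 fold-changes of 3.50, 2.97 and 2.80. All 3 were below 0.7 CPM in each siNT+NRF1-FL library. Besides HIST2H3A and AC008554.1, the lower ones were led by PTGFR (-1.92), a prostaglandin receptor in the chromosome 1 region described below, RSPO4 (-1.83), a Wnt agonist, and MYO15A (-1.79), a myosin of hair cells. AC092139.1 had no count with NRF1-FL and at most 0.437 CPM in siNT, at least 13.5-fold lower by the same floor of 3 counts over the group. In the opposite direction, 6 of the 140 were called lower than in the NRF1-DE7 line (1.05% of all genes were). Of the 82, 1 was called higher than in that line (1.16% of all genes were).

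At higher levels of expression, the following genes were chosen after their values were seen. COL2A1, type II collagen, was at 112, 114 and 114 CPM against 73.1, 65.5 and 65.3 CPM (log2 fold-change 0.74). AMOT, the angiomotin of the Hippo pathway, was at 99.97, 94.0 and 95.5 CPM against 63.5, 59.5 and 57.3 CPM, and at 55.5, 55.4 and 52.6 CPM in the NRF1-DE7 line. Its log2 fold-change was 0.68 against siNT and 0.82 against the NRF1-DE7 line, and 0.62 in siNRF1+NRF1-FL against siNRF1. GLS2, a mitochondrial glutaminase, was at 15.6, 16.5 and 16.1 CPM against 9.70, 8.64 and 8.75 CPM. Other single genes picked in the same way were the transcription factor genes HAND1, higher by 0.95, SIX2 by 0.59 and OLIG1, on chromosome 21, by 0.60, SLIT1, an axon guidance ligand, by 0.97, the kinase gene DCLK1 on chromosome 13 by 0.59 and the gelatinase gene MMP2 by 1.34. CGA, the shared subunit of glycoprotein hormones, was at 18.4, 17.6 and 18.5 CPM against 34.1, 34.4 and 35.1 CPM, and was low in the NRF1-DE7 line too (19.5, 19.1 and 21.4 CPM). BDNF, a neurotrophin, was at -0.82, MYOF, a membrane repair protein, at -0.58 and TSPO, of the outer mitochondrial membrane, at -0.58.

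Part of the difference followed position on chromosomes. The median log2 fold-change was 0.21 over the 213 genes tested on chromosome 21 and 0.14 over the 334 on chromosome 13, and lay between -0.02 and 0.04 on each other chromosome from 1 to 22 and X. On chromosome 21, 105 genes were higher and 5 lower at an adjusted p under 0.05 (49.3% and 2.35%, beside 5.34% and 2.8% of all genes). On chromosome 13, 99 were higher and 4 lower (29.6% and 1.20%). These 2 chromosomes hold 3.05% of the genes tested and 21.3% of the 959 higher genes, but 11.4% of the 140 that also passed the fold threshold. Outside these chromosomes and the stretches of chromosomes 1 and 14 described below lie 122 of the 140 higher and 76 of the 82 lower calls (87.1% and 92.7%), a count added after the data were seen. Of the 17962 genes tested, 547 lie on chromosomes 13 and 21, 200 in the chromosome 1 stretch and 150 in that of chromosome 14. On chromosome 21, 9 of 213 genes were called higher and 2 lower, and on chromosome 13, 7 of 334 higher and 3 lower. In the chromosome 1 stretch 1 of 200 was called higher and 1 lower, and in that of chromosome 14, 1 of 150 higher and 0 lower. Beside the 1.24% of all genes called in either direction, calls were thus more frequent on the 2 chromosomes but not in the 2 stretches. Such medians and the regions below are descriptions of position, chosen after the values were seen, with no test.

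**Figure D4:**
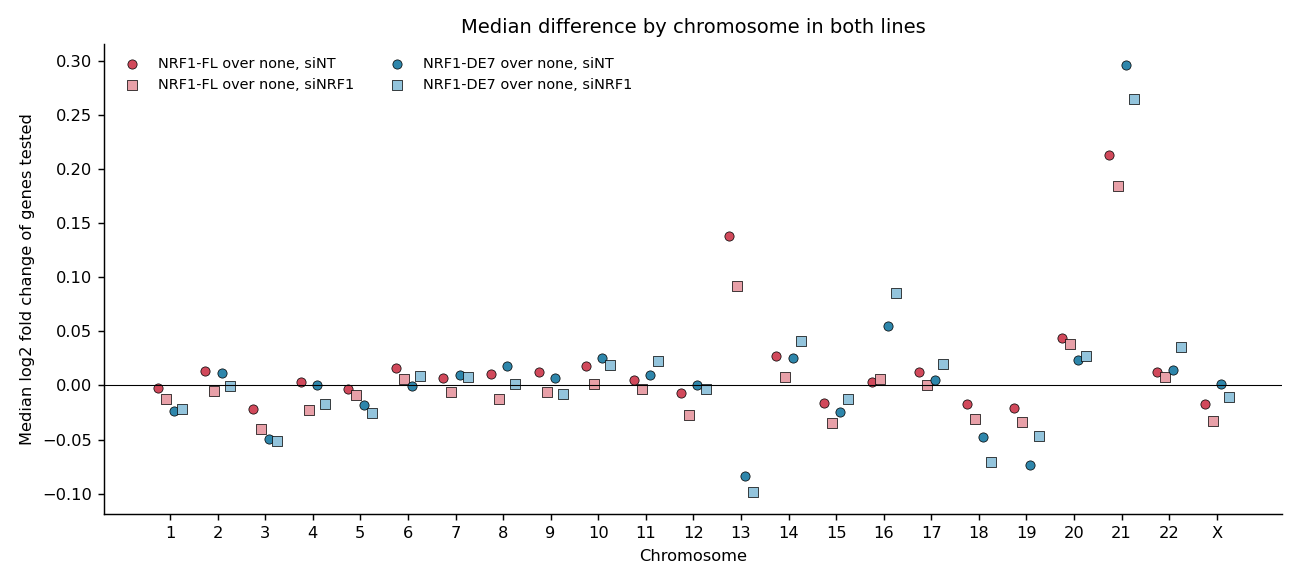
Median log2 fold-change over the genes tested (y axis) by chromosome (x axis) for the NRF1-FL and NRF1-DE7 lines against cells without a transgene, under siNT and under siNRF1. Chromosome 21 is high in both lines (0.21 and 0.30 under siNT), chromosome 13 is high in the NRF1-FL line (0.14) and low in the NRF1-DE7 line (-0.08).

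Windows of 50 neighbouring genes, moved by 25 genes, placed the shifts more closely. Of 679 windows, 28 had a median beyond 0.1 in either direction, while the quartiles of all windows were -0.01 and 0.02. Along chromosome 21 the medians rose from 0.04 in the window at the short arm to between 0.16 and 0.25 in the others. On chromosome 13 they were within 0.05 of 0 in the windows up to chr13:27066156-37059713 (hg38), and between 0.11 and 0.23 from chr13:31199975 on. A stretch of chromosome 1 with 200 genes tested, chr1:54886812-108202743, was lower throughout, with window medians from -0.17 to -0.14, 75 genes lower and 1 higher (37.5% and 0.5%). A stretch of chromosome 14, chr14:21351476-45290386, with 150 genes, was higher with a median of 0.11 and 35 genes higher at an adjusted p under 0.05 (23.3%). The other window beyond 0.1 lies on chromosome 5, chr5:1456480-32312987, where 50 genes had a median of 0.11, 19 were higher and 1 lower (38% and 2%), and the median was 0.13 in siNRF1+NRF1-FL against siNRF1 and 0.09 in siNT+NRF1-DE7 against siNT.

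The shifts were present in each library of the line, though not at one size. Over genes with a mean of at least 1 CPM, the chromosome 21 median against the siNT mean was 0.21, 0.22 and 0.21 on the log2 scale in siNT+NRF1-FL and 0.01, -0.0004 and -0.01 in siNT. In the siNRF1+NRF1-FL libraries, set against the same siNT mean, it was 0.20, 0.25 and 0.21. For chromosome 13 the 3 siNT+NRF1-FL libraries stood at 0.14, 0.14 and 0.10, and the 3 of siNRF1+NRF1-FL at 0.12, 0.08 and 0.10. For the chromosome 14 stretch they stood at 0.09, 0.11 and 0.09 under siNT and lower, at 0.05, 0.06 and 0.06, under siNRF1. For the chromosome 1 stretch they stood at -0.14, -0.13 and -0.19 under siNT and at -0.24, -0.25 and -0.19 under siNRF1, where cells without a transgene were also below 0, at -0.05, -0.14 and -0.08.

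The NRF1-DE7 line shared some of these stretches and not others. Its chromosome 21 medians were 0.29, 0.27 and 0.30 under siNT, above those of the NRF1-FL line, while its chromosome 13 medians were -0.08, -0.10 and -0.08, on the other side of 0. On chromosome 1 the first 4 windows of the stretch, up to chr1:77282019-89769903, had medians between -0.02 and 0.02 in siNT+NRF1-DE7 against siNT, and the last 3 had medians between -0.28 and -0.19. In siNT+NRF1-FL against siNT the same 2 groups of windows stood at -0.17 to -0.14 and at -0.15 to -0.14. Counted in the same way as above, that comparison called 231 genes higher (1.29%) and 167 lower (0.93%). Both comparisons share the siNT libraries, and DNA copy number was not measured in these data.

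**Figure D5:**
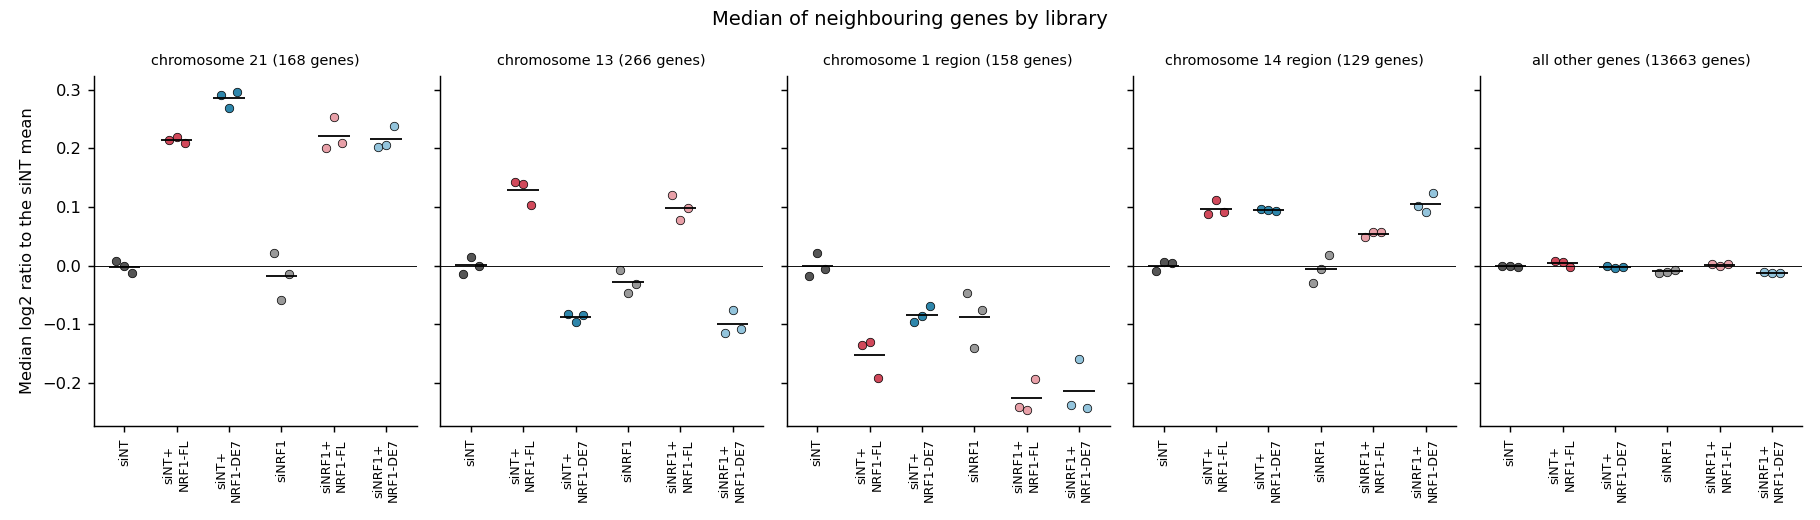
Median log2 ratio of each library to the siNT mean (y axis) over genes of at least 1 CPM on chromosome 21, on chromosome 13, in the stretches of chromosomes 1 and 14 and elsewhere; points are the 18 libraries, lines the group means. The siNT+NRF1-FL libraries stand at 0.21 to 0.22 on chromosome 21, at 0.10 to 0.14 on chromosome 13 and at -0.19 to -0.13 in the chromosome 1 stretch.

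The window with the highest median, on the long arm of chromosome 21, held several well-expressed genes. PWP2, of the ribosome-assembling small-subunit processome, was at 178, 176 and 180 CPM against 133, 129 and 128 CPM, a log2 fold-change of 0.45 (adjusted p = 2.7e-09 by edgeR's quasi-likelihood test). PWP2 and GATD3A have near-identical copies in hg38, so their counts may be split. GATD3A rose by 0.47, LRRC3 by 0.48, the sterol exporter gene ABCG1 by 0.55 and HSF2BP, of meiotic recombination, by 0.68, with C2CD2 above at 1.74. Genes on these chromosomes also made up members of other lists. SOD1, the cytosolic superoxide dismutase, was at 553, 533 and 542 CPM against 459, 441 and 448 CPM (0.27). The collagen genes COL6A1, COL6A2 and COL18A1 rose by 0.20, 0.22 and 0.19, the ribosome biogenesis genes RRP1 and RRP1B by 0.26 and 0.28, the sterol synthase gene LSS by 0.18 and the glycolytic enzyme gene PFKL by 0.23. On chromosome 13, the lysosomal protein gene LAMP1 rose by 0.20, the chaperone gene DNAJC3 by 0.19, the signalling inhibitor gene SPRY2 by 0.17 and the protocadherin gene PCDH9 by 0.17. RPL5, a ribosomal protein gene within the chromosome 1 stretch, fell by 0.17 on the log2 scale.

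Lists of other pathways are given by how many of their tested members passed an adjusted p of 0.05, beside 5.34% higher and 2.8% lower over all genes. Over all genes, leaving out 1 library gave 581 to 768 higher and 259 to 361 lower, beside 959 and 503 with every library. List counts without 1 library are to be read beside that general drop. Of 25 p53 target genes, 8 were higher and none lower by edgeR's quasi-likelihood test, nor were any lower at an unadjusted p under 0.05 or by DESeq2. The list median was 0.09. SPATA18, a mitochondrial quality control gene, was at 15.4, 15.95 and 14.1 CPM against 11.2, 10.3 and 10.6 CPM (log2 fold-change 0.50), the death receptor gene FAS rose by 0.29, and ZMAT3 and DDB2 by 0.21 each. The count was 6 with upper-quartile scaling and 5 without siNT replicate 3.

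In the integrated stress response, 8 of 30 genes were lower and 1 higher, with a median of -0.06. ALDH1L2 led them at -1.10, followed by DDIT4, an inhibitor of mTOR signalling, at 55.0, 52.0 and 50.8 CPM against 75.5, 67.6 and 74.9 CPM (-0.47). DDIT3, the transcription factor CHOP, was at -0.22, and PCK2, a mitochondrial enzyme of the chromosome 14 stretch, at 0.22. Without siNT replicate 1 or 3 or siNT+NRF1-FL replicate 1 or 2 the lower members were 4, and without siNT+NRF1-FL replicate 3 they were 5. In siNT+NRF1-DE7 against siNT the list median was 0.09.

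Of 47 genes of extracellular matrix and adhesion, 11 were higher and 3 lower, with a median of 0.06. COL5A2, a fibrillar collagen, was at 5.26, 5.93 and 5.30 CPM against 3.09, 2.66 and 1.95 CPM (1.09), and SPARC, a collagen-binding matrix protein, at 10.6, 10.4 and 9.93 CPM against 6.21, 5.45 and 5.80 CPM (0.82). The hyaluronan receptor CD44 was at -0.49 and tenascin C (TNC) at -0.46. Of the 11, 3 are the chromosome 21 collagens, and the counts became 3 higher and 2 lower without siNT replicate 2 or 3, and 4 higher and 5 lower without siNT+NRF1-FL replicate 1.

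Of 30 genes of the actin cytoskeleton, 6 were lower and none higher by edgeR's quasi-likelihood test, while DESeq2 on all libraries called 5 lower and 1 higher. At an unadjusted p under 0.05, 10 were lower and 4 higher, beside 8.8% and 12.1% of all genes. ANXA1, a membrane-binding annexin, was at 11.8, 11.1 and 11.03 CPM against 16.5, 15.5 and 16.9 CPM (-0.53) and TAGLN, an actin-binding protein, was at -0.62, with ANXA2 at -0.21 and CNN3 at -0.16. Among 18 YAP and TEAD targets and regulators, 4 were higher and 2 lower, the latter ANKRD1 at -0.46 and CCN1 at -0.27, the former led by ARHGEF17 at 0.27 and YAP1 itself at 0.20. Only 2 were higher without siNT replicate 1 or 3 or siNT+NRF1-FL replicate 1 or 2. Of 26 immediate early genes, 4 were lower and 1 higher, the lower ones led by FOS at -0.43, EGR1 at -0.39 and SPRY4 at -0.25, followed by KLF4 at -0.19. EGR1 was at 26.9, 27.1 and 27.4 CPM against 34.1, 35.7 and 37.1 CPM, and was also low in the NRF1-DE7 line (27.4, 28.0 and 26.7 CPM). The lower members were 2 without siNT replicate 1 or 2 or siNT+NRF1-FL replicate 2, and the higher one was lost without siNT replicate 2 or 3 or siNT+NRF1-FL replicate 1 or 3.

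Among 78 cytosolic ribosomal protein genes, 7 were lower and none higher by edgeR's quasi-likelihood test, none was higher by DESeq2 or at an unadjusted p under 0.05, and the median was -0.06. Beside RPL5 stood RPL39 at -0.16 and RPL35A at -0.13. That count was 3, 5 and 2 without siNT replicates 1, 2 and 3 and 2, 3 and 4 without siNT+NRF1-FL replicates 1, 2 and 3, and DESeq2 on all libraries gave 11. Of 24 genes of endoplasmic reticulum stress, 5 were higher, with CALR at 0.14 and PDIA4 and XBP1 at 0.11, and the count was 3 without siNT replicate 1 and 2 without siNT replicate 2 or siNT+NRF1-FL replicate 2 or 3. Of 37 HOX genes, 5 were higher, HOXC5 at 0.81, HOXA9 at 0.25, HOXC9 at 0.23 and HOXC4 at 0.16, and 3 were higher without siNT replicate 2 or 3 or siNT+NRF1-FL replicate 2 or 3, or 2 with DESeq2 on only the compared libraries. Of 41 zinc finger genes of chromosome 19, 4 were lower, ZNF676 at -1.80, ZNF257 at -1.67, ZNF880 at -0.35 and ZNF550 at -0.26. That count was 1 without siNT replicate 3 or siNT+NRF1-FL replicate 1 and 2 without siNT+NRF1-FL replicate 3. Of 23 protocadherins 3 were higher, PCDHB5 at 1.77, PCDH10 at 0.89 and PCDH9. At an unadjusted p under 0.05, where 12.1% of all genes were higher, 7 of the 23 were. DESeq2 on all libraries called 0 of them and on only the compared libraries 1, and edgeR called 0 without siNT replicate 3, 0 higher and 1 lower without siNT+NRF1-FL replicate 1, and 1 without siNT replicate 1 or siNT+NRF1-FL replicate 3.

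Lists with 4 or fewer members past the test in either direction showed the following. Of 23 glycolysis genes, 2 were higher and 2 lower, SLC2A3 among the latter with PGK1 at -0.18, and SLC16A1, a lactate carrier, at 0.12. Of 24 genes of cholesterol synthesis, 2 were higher, TM7SF2 at 0.24 and LSS, and 3 lower, led by INSIG1 at -0.15. Of 42 DNA replication genes 4 were higher, led by MCM5 at 0.14, and 2 lower, POLD3 at -0.15 and RFC4 at -0.13, and of 30 mitosis genes 2 were higher (TPX2 0.12 and KIF20A 0.11) and 2 lower (PTTG1 -0.16 and CCNB2 -0.09). Of 44 cilium genes 2 were higher, KIF3B at 0.23 and BBS2 at 0.16, and 2 lower, INPP5E at -0.19 and BBS4 at -0.16. Of 26 antioxidant genes 4 were higher and 1, TXN at -0.15, lower. Of 14 genes of RNA silencing 3 were higher, TNRC6B at 0.20, AGO1 at 0.19 and XPO5 at 0.12. Of 28 interferon response genes 3 were higher, led by USP18 at 0.22 and OAS3 at 0.20, of 31 proteasome genes 3, led by PSMB5 at 0.16, and of 19 hypoxia genes 2 were lower, NDRG1 at -0.28 and P4HA2 at -0.17. Single members passed among heat shock genes (HSPA1B, 0.15) and replication-dependent histone genes (HIST1H2BK, 0.26), and among 14 housekeeping genes GUSB was at 0.22 and PGK1 lower. The 10 histone genes tested had a median of 0.25. At an unadjusted p under 0.05, 5 of these 10 were higher and 0 lower, beside 12.1% and 8.8% of all genes. Of 18 neuronal transport and synapse genes NRXN3 was at 0.28 and CNTNAP2 at 0.21. Leaving out single libraries moved several of these small counts. It also lowered the counts over all genes, from 959 higher and 503 lower to 581 to 768 and 259 to 361. The higher interferon genes were 1 without siNT replicate 2 or 3 or siNT+NRF1-FL replicate 1 and 0 without siNT+NRF1-FL replicate 2. With all libraries 6 of the 28 were higher at an unadjusted p under 0.05, where 12.1% of all genes were. The higher DNA replication genes were 1 without siNT replicate 2 or siNT+NRF1-FL replicate 1 or 2 and 2 without siNT replicate 1 or 3, and the lower ones ran from 0 (without siNT replicate 2) to 2. The higher antioxidant genes were 2 without siNT replicate 2 or siNT+NRF1-FL replicate 2. Those of RNA silencing were 5 without siNT replicate 2, and 2 without siNT replicate 1 or 3 or siNT+NRF1-FL replicate 1. The higher cholesterol genes were 1 whichever library was left out, and the lower ones 1 without siNT replicate 1 or siNT+NRF1-FL replicate 2. The higher glycolysis genes were 1 without siNT replicate 3 or siNT+NRF1-FL replicate 1, the higher cilium genes 1 without siNT replicate 2 or siNT+NRF1-FL replicate 3, and the neuronal transport and synapse genes 1 without replicate 3 of either group. The lower cilium genes were 0 without siNT replicate 3 or siNT+NRF1-FL replicate 1 or 2 and 1 without any other library. The higher mitosis genes were 1 without siNT replicate 1 or 2 or siNT+NRF1-FL replicate 2 or 3, the lower ones 1 without siNT replicate 1 or 3 or siNT+NRF1-FL replicate 1 or 2, and the lower hypoxia genes 1 without replicate 1 or 2 of either group.

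Markers of HEK293 were present in both groups: all 13 were tested, with a summed level of 1830 to 1907 CPM in siNT+NRF1-FL and 1947 to 2004 CPM in siNT. INA, a neuronal filament typical of the line, was at 0.16 and VIM, vimentin, at -0.09. Of 10 neuronal markers 6 were tested and summed to 31.4 to 32.6 CPM against 29.4 to 31.9 CPM, with RBFOX3 higher at 0.80, a list median of -0.08 and a lowest log2 fold-change of -1.32, which did not pass the test. Of 12 epithelial markers 10 were tested and summed to 672 to 689 CPM against 642 to 675 CPM, with CDH1 higher at 0.42 and KRT14 at 0 in all 6 libraries. Of 11 fibroblast markers 5 were tested, summing to 33.3 to 34.7 CPM against 31.3 to 33.0 CPM, with COL1A2 at 0 and TAGLN, lower at -0.62, as the only member past the test. Of 12 blood markers 4 were tested, summing to 26.2 to 29.2 CPM against 26.4 to 26.9 CPM, with CD3E, HBB and MS4A1 at 0 and with CD8A (0.66) and HBA1 (0.55) higher, and 1 of the 4 was higher each time 1 library was left out. Total counts ran from 36863650 to 43068076 in siNT+NRF1-FL and from 31179279 to 42069328 in siNT. A lower level of an RNA in fewer cells and a lower level in each cell cannot be told apart in bulk samples.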

How the data were processed

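Poly(A) RNA of 18 libraries was sequenced from a stranded preparation. Per the submitters' notes, reads were trimmed by Cutadapt 1.18 and aligned by STAR 2.7.0f to hg38 with GENCODE 30, and DESeq2 1.46.0 was used. The authors deposited estimated counts for each gene without normalization, of which 91.9% were whole. No source used here names the tool that counted reads or its strand setting. Of 36 columns of per-library values, 18 match no sample here and were not used.

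The deposited estimated counts were rounded. A gene was tested if filterByExpr kept it at a minimum count of 10, which was true of 17962 of 58870, and counts were scaled by TMM (factors 0.944 to 1.07). The quasi-likelihood F test of edgeR 4.0.16 in R 4.3.3 was run on all 18 libraries with a mean per group (12 residual degrees of freedom, biological coefficient of variation 0.0337), with Benjamini-Hochberg adjustment over all genes tested. All tests are two-sided. Calls took an adjusted p below 0.05 and a log2 fold-change beyond 0.5 in size, and counts of list members the adjusted p only. Positions and promoters come from hg38 with GENCODE 44, in which 99.4% of genes tested had a transcript start. Region medians per library use log2 of CPM with 0.1 added. The steps were tested on simulated counts.

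The named genes are NRF1, PUDP, ANKRD26 and YEATS4; the 12 largest calls in each direction that reach 1 CPM and do not overlap; the 6 largest in each direction also called against the NRF1-DE7 line; the 6 largest called oppositely with siNRF1 in that line; up to 4 members per list; and up to 6 genes of the most distant window. Further genes were picked with their values in view. The libraries compared, the 43 gene lists and the tests were chosen with earlier results of these data known. As alternatives, scaling was set to RLE or upper quartile, the filter was dropped or raised to 10 counts in all libraries, and a block for replicate number was added. DESeq2 1.42.0, edgeR on the compared libraries alone, other fold limits and the omission of each library were also tried. Total counts per library were 31179279 to 44802680, and precision from depth covers counting error only.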

Additional observations from a re-analysis of the deposited data

Results flagged for a closer look

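The difference between the NRF1-FL line and cells without a transgene was not the same under siNT and siNRF1 for 342 genes, by the interaction term of edgeR's quasi-likelihood test at an adjusted p under 0.05 and beyond 0.5 on the log2 scale. Of these, 27 had a higher difference under siNT (0.15% of genes tested) and 315 a lower one (1.75%). Among the 140 higher genes in siNT+NRF1-FL, 20 were of the lower and 3 of the higher kind, and among the 82 lower genes 7 were of the lower kind. The interaction uses the same siNT+NRF1-FL and siNT libraries that chose these genes, so these counts are no independent evidence.

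The following values are the log2 difference under siNT minus that under siNRF1. For NRF1 itself it was -1.78, for ANKRD26 -1.29, for YEATS4 -1.36 and for PUDP -1.38. RASGRF1 had -0.96, ADCYAP1R1 -1.40, NCAN -2.13, SLC8A2 -1.47 and POLA2 -1.06. CYP24A1 stood at -1.33, MEST at -1.40, CNTNAP1 at -0.78, GLS2 at -0.57 and OXGR1 at -1.38. PRR35 stood at -1.73, ABHD14A at -1.45, TMEM179 at -4.71 and the cilium gene BBS2 at -2.39. The values were -0.51 for ARHGEF17, -0.60 for USP18 and -0.67 for ABCG1. The low or repeated features AC009133.6 and RNFT1-DT had -2.34 and -4.66, and the histone gene HIST2H3C, uncertain for its near-identical copy, had 2.29.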

How the results depend on the processing

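The 140 higher and 82 lower calls became 140 and 82 with RLE scaling, 135 and 88 with upper-quartile scaling, and 103 and 59 with DESeq2 on all libraries, where 38 of the calls had no adjusted p. Without a filter on low counts 134 genes were lower. DESeq2 on only the compared libraries called 131, of which 88 were higher and 43 lower, and in the comparisons of NRF1-FL with NRF1-DE7 under siNT, of NRF1-DE7 with no transgene under siNT and under siNRF1 it called 228, 235 and 259. With no fold threshold 1462 genes were called, 959 higher and 503 lower, and with a threshold of 1 on the log2 scale 97, of which 61 higher and 36 lower. In the same order of no threshold and a threshold of 1, the other comparisons gave 2794 and 148 (NRF1-FL against NRF1-DE7, siNT), 2928 and 117 (NRF1-DE7, siNT), 4026 and 319 (NRF1-FL, siNRF1), 3847 and 137 (NRF1-DE7, siNRF1), 12238 and 2305 (siNRF1 in the NRF1-DE7 line), 11584 and 1898 (siNRF1 without a transgene) and 960 and 107 (interaction). These counts follow from the thresholds themselves, and the cause of the other changes was not tested.

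Leaving out 1 library gave 162 to 207 calls, 112 to 141 higher and 46 to 74 lower. The lower calls were 54 without siNT replicate 2, 46 without siNT replicate 3, 46 without siNT+NRF1-FL replicate 1 and 51 without siNT+NRF1-FL replicate 2. The chromosome 21 median was 0.20 with upper-quartile scaling. YEATS4 changed sign to -0.00406 with upper-quartile scaling and to -0.0259 without siNT+NRF1-FL replicate 2, with a highest value of 0.0394 when siNT+NRF1-FL replicate 3 was left out. Of 179 named genes, 108 kept their direction and their side of the threshold in each alternative run. Depth limits genes below 1 CPM, which are 40 of the higher and 24 of the lower calls.

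Replicate numbers showed no clear pairing of the samples, though 3 libraries per group cannot exclude one. Over all pairs of groups, correlations of deviations ran from -0.116 to 0.064 for the same number. For different numbers they ran from -0.091 to 0.088. Deviations of siNT and siNT+NRF1-FL libraries with the same number correlated at 0.0056, -0.0013 and 0.032. With a replicate block 231 genes were called, 143 higher and 88 lower, and 218 of the 222 were among them.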
